A study of Homo sapiens with 6 samples.

Results

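NF-kB is a family of dimeric transcription factors that drives inflammatory and survival genes, and the 10 genes described here are subunits of that family, proteins that hold it inactive, and genes it is known to induce. They are the subunit genes NFKB1, NFKB2, RELA and RELB, the inhibitor genes NFKBIA, NFKBIB and NFKBIE, and the inducible genes TNFAIP2, TNFAIP3 and ICAM1. The members were given by name, and every probe set that the platform annotation assigns to a single gene of that name was taken, which gave 20 of the 54675 probe sets on the array. A probe set is a group of short probes that together measure a transcript. For 18 of the 20, the mean over all arrays was above 4 on the log2 scale, the level required for testing, and each of the 10 genes had at least 1 such probe set among the 10862 genes tested.

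The cells were Capan-1, an established human pancreatic carcinoma line grown in monolayer. There were 3 arrays of cells transfected with small interfering RNA against GNE (siGNE) and 3 arrays of cells labelled as allStar-transfected control. GNE encodes the enzyme that starts sialic acid synthesis, and all cells received 2 transfections 48 h apart and were harvested 72 h after the second. The line is the only one used, the labels do not say whether a group's arrays are independent cultures. The p-values therefore measure only array-to-array spread here, and part or all of it may be technical. The titles number the arrays V1 to V3 in each group, and arrays sharing a number are called a pair.

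In resting cells, NF-kB dimers are kept in the cytoplasm by IkB proteins. A kinase complex called IKK marks the IkB proteins for destruction after signals such as TNF or interleukin-1, and the released dimers then induce their own inhibitors, among them NFKBIA and the ubiquitin-editing enzyme TNFAIP3, so the pathway damps itself. Transcripts of these feedback genes are widely used as a readout of NF-kB activity, and ductal pancreatic carcinoma cells are known for frequent constitutive activity of the pathway. The arrays measured transcripts only, so nuclear entry, degradation of IkB and phosphorylation were not measured.

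Because NF-kB induces several of these genes through their promoters, promoter stretches are shown for the 3 members that were lower in every pair and for 2 cytokine genes that fell, a choice made after the values were seen. RefSeq promoter windows of the GRCh38.p14 assembly ran from 250 bases before to 50 bases after an annotated transcript start. They were searched on both strands for a 10-base kappaB consensus, GGGRNNYYCC, a form of the motif that NF-kB dimers bind. R stands for A or G, Y for C or T and N for any base. Of the members, 8 had a window and 5 of these had a match in at least 1 window (NFKB1, NFKB2, NFKBIA, NFKBIB and TNFAIP3). The stretches of NFKB2, which was higher in every pair, and of NFKBIB, which had mixed signs, are not shown. RELA, TNFAIP2 and ICAM1 had no match within these windows. RELB and NFKBIE were not analysed here. Of the other target genes described further on, CD83, CXCL1 and IL6 had a match and CXCL8, which also fell, had none. The promoter of C3, which fell too, was not analysed here. Only this exact pattern was searched, so a gene without a match may still hold a kappaB site in its window. Whether a match goes with a fall was not tested. Over the whole table, 13.3% of 27305 genes and 11.3% of 35116 windows held a match. The stretches below are read 5′ to 3′ on the gene's strand, capitals mark bases of a match on either strand, matches can overlap, and a match is a description of letters and not a measured binding site.
NFKB1, chr4:102501290-102501339, plus strand: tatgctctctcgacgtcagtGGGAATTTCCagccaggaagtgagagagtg
NFKBIA, chr14:35404750-35404869, minus strand: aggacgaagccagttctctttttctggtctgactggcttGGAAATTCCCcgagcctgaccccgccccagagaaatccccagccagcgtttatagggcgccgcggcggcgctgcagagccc
TNFAIP3, chr6:137867139-137867258, plus strand: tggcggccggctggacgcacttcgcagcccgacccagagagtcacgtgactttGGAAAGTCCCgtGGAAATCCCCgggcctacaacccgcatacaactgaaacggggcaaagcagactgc
CXCL1, chr4:73869294-73869344, plus strand: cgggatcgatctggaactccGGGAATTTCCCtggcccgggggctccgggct
IL6, chr7:22727107-22727156, plus strand: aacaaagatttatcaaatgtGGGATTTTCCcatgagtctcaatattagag

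The NFKBIA and TNFAIP3 stretches each hold the 120 bases before the transcript start, and the others hold the match with its surroundings. In NFKBIA the match lay 81 to 72 bases before the start. TNFAIP3 had a pair of adjacent matches, at 67 to 58 and 55 to 46 bases before the start. NFKB1 had its match 49 to 40 bases before the first of its 2 annotated starts, and NFKB2 had matches in 2 of its 3 windows.

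**Figure D1:**
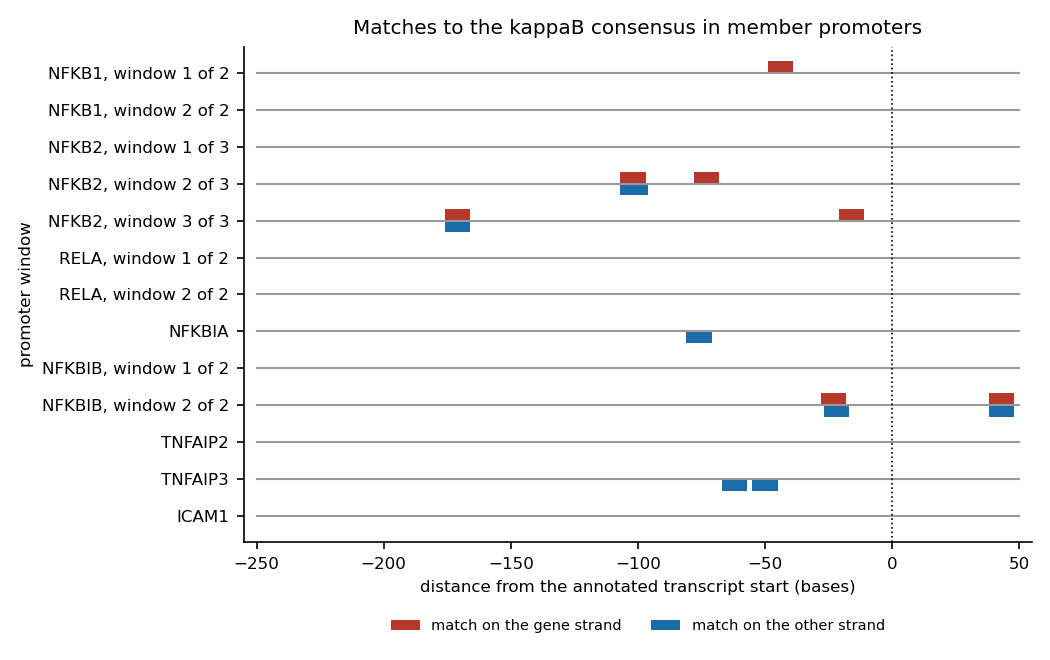
Positions of kappaB consensus matches in the 13 promoter windows of the 8 members with a window, as distance in bases from the annotated transcript start (dotted line). Bars above a line are matches on the gene's strand and bars below it on the other strand, and the TNFAIP3 matches lie side by side within 67 bases of the start.

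The silenced gene checks the labels. GNE read 11.12, 11.47 and 10.86 (log2) on control arrays 1 to 3 and 8.39, 9.86 and 9.57 on siGNE arrays 1 to 3, so the groups did not overlap. The mean difference, siGNE minus control, was -1.88 (SE 0.40) with a limma adjusted p of 0.131, and 0.0348 when the pair number was a replicate block. By exact permutation (two-sided), p was 0.1, the lowest value possible with 3 against 3 arrays. Array medians ran from 2.96 to 3.02, so values near 3 are close to background. All 8 epithelial markers were above 4, with summed log2 levels of 107.2 to 108.9 in control and 108.0 to 109.7 in siGNE cells, while 0 of 6 leukocyte and 0 of 5 endothelial markers were. Of 6 fibroblast markers, COL1A1 alone was above 4. It rose with the block by 0.71 and 0.52 on 2 probe sets (limma adjusted p 0.0441 and 0.0384), while a further one differed by 0.22 and did not pass. The summed levels of that list were 21.2 to 22.5 in control and 21.8 to 23.1 in siGNE cells, whose part in the results below was not tested.

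Most NF-kB members stayed within the spread between arrays after GNE silencing. In limma without the replicate block 0 of the 18 tested member probe sets passed an adjusted p of 0.05, against 0.0408% of all 22085 tested probe sets, and 1 had an unadjusted p under 0.05, which 14.6% of all tested probe sets had. The fit with the block compares siGNE with control inside each pair. There, 1 of the 18 rose and 0 fell, where 4.13% of all tested probe sets rose and 5.35% fell, and 3 reached an unadjusted p under 0.05, a level that 31.6% of all tested probe sets reached. The probe set that rose was that of NFKBIE. In bulk RNA a change in the amount per cell cannot be told apart from a change in the share of cells that express a gene.

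With 1 probe set a gene, the median difference of the 10 members was -0.10, beside -0.02 for all 10862 tested genes. It was 0.08, -0.27 and -0.06 in pairs 1, 2 and 3. Its sign depended on single arrays: it was 0.08 without control array 3 and 0.07 without siGNE array 2, and -0.20 without control array 1 or without siGNE array 3. NFKB2 and NFKBIE were higher in all 3 pairs and NFKB1, NFKBIA and TNFAIP3 were lower in all 3, and the other 5 members had mixed signs. Among all tested genes, 27.0% were higher and 30.8% lower in all 3 pairs, so neither count of members stands out from its background. For 2 members, NFKB1 and NFKBIA, all siGNE values lay below all control values, and for 0 they lay above, where 13.8% and 9.38% of tested genes did so.

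**Figure D2:**
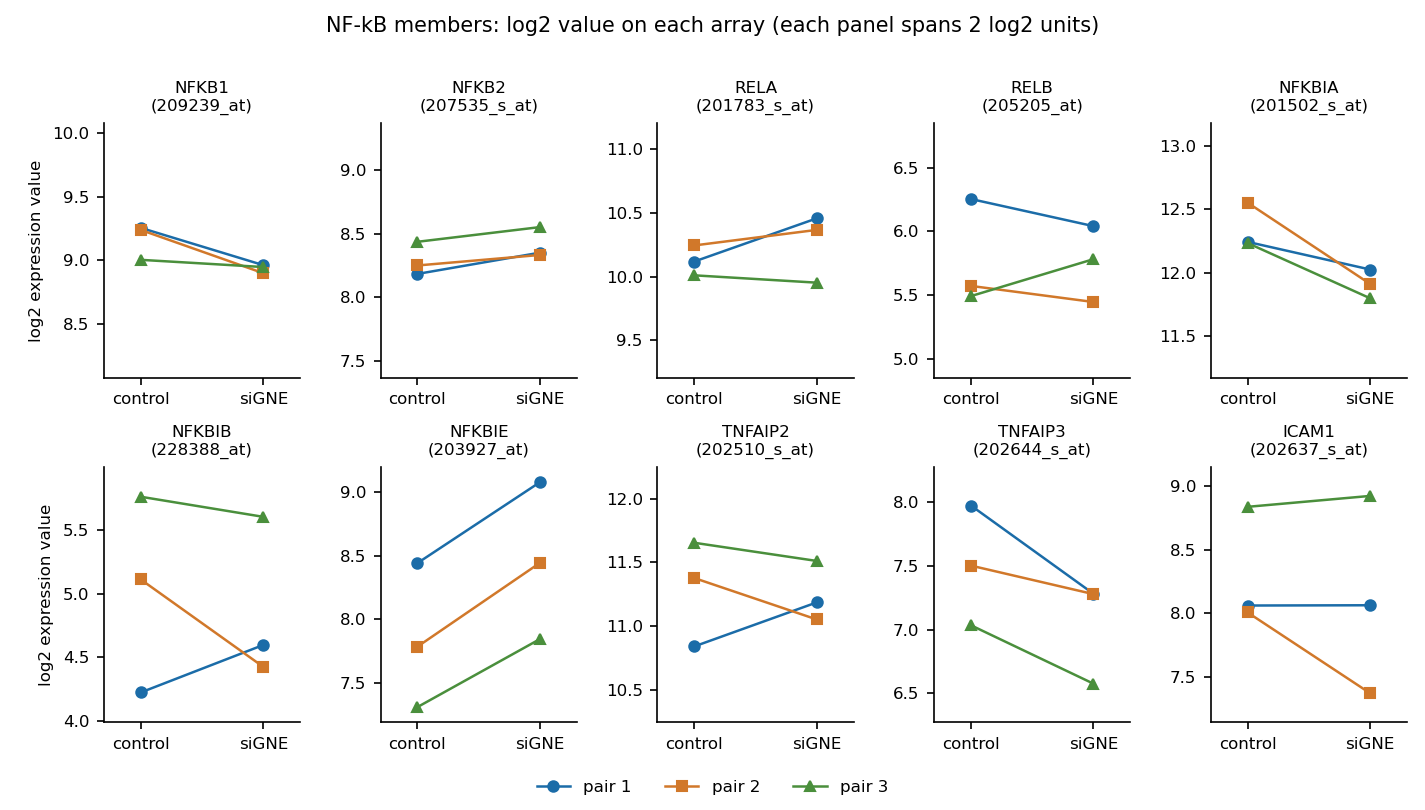
Log2 expression value of each member on the 6 arrays, with the probe set used for the gene in brackets, lines joining the control and siGNE array of a pair, and each panel spanning 2 log2 units. The 3 NFKBIE lines run upward in parallel from separate starting levels, while the NFKBIA lines all run downward.

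The subunit genes encode the DNA-binding proteins themselves. RELA, whose product p65 carries the main activation domain of the canonical pathway, read 10.12, 10.24 and 10.01 in control and 10.46, 10.37 and 9.95 in siGNE cells of pairs 1 to 3. The groups overlapped, and the difference of 0.13 (SE 0.17, limma adjusted p 0.807, and 0.452 with the block) was within the spread. A second RELA probe set differed by -0.01, but its level depended on the pair, from 8.36 and 8.55 in pair 2 to 9.61 and 9.69 in pair 3.

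NFKB1 encodes p105, which is processed to the p50 subunit. It read 9.25, 9.24 and 9.00 in control and 8.96, 8.90 and 8.95 in siGNE cells. The siGNE values were all lower than the control values, by 0.29, 0.34 and 0.06 in the pairs, yet the difference of -0.23 (SE 0.12) did not pass in limma without the block (adjusted p 0.464) or with it (adjusted p 0.191). Pair 3 contributed least, because its control array was the lowest of the 3.

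The subunits of the non-canonical branch are NFKB2, which gives p52, and RELB, its usual partner. NFKB2 read 8.18, 8.25 and 8.43 in control and 8.35, 8.33 and 8.55 in siGNE cells. It was slightly higher in each pair, with overlapping groups, a difference of 0.12 and a 95% interval from -0.09 to 0.34 in limma with the block (adjusted p 0.372). Another NFKB2 probe set differed by 0.23 with a negative value in pair 2, and the remaining NFKB2 probe set had a mean of 2.40, at background, and was not tested. RELB read 6.25, 5.57 and 5.49 in control and 6.04, 5.44 and 5.78 in siGNE cells, a difference of -0.02 (SE 0.26, limma adjusted p 0.991, and 0.945 with the block). For RELB the pair number moved the level more than the siRNA, with a range of 0.64 between pair means.

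The inhibitors differed from each other. NFKBIE encodes IkB epsilon, an IkB protein with a slower feedback than NFKBIA. It read 8.44, 7.78 and 7.31 in control and 9.08, 8.44 and 7.84 in siGNE cells. The siGNE array was higher than its own control in every pair, by 0.64, 0.66 and 0.53, although the groups overlapped because pair 1 was high and pair 3 low in both. The mean difference was 0.61, or 1.53-fold. Without the block the standard error was 0.40 and the limma adjusted p 0.568, and with the replicate block the standard error fell to 0.085, the 95% interval ran from 0.39 to 0.83 and the adjusted p was 0.0302.

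The NFKBIE call rests on the pairing and on the filter on low values. With the block and no filter, so that 54613 probe sets were tested, the limma adjusted p of NFKBIE was 0.101 and 0 probe sets of any gene passed, although 7167 had an unadjusted p under 0.05. Leaving out any 1 of the 3 pairs gave 0.59 to 0.65 with a limma adjusted p between 0.0862 and 0.144, in fits where 0 of all probe sets passed and 5022 to 5529 had an unadjusted p under 0.05. Leaving out a single array breaks a pair, and without the block the difference was then 0.30 without siGNE array 1, 0.34 without control array 3, 0.91 without control array 1 and 0.92 without siGNE array 3.

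NFKBIA encodes IkB alpha, the fast feedback inhibitor whose promoter stretch is printed above. It read 12.24, 12.55 and 12.23 in control and 12.03, 11.91 and 11.80 in siGNE cells. All siGNE values lay below all control values, by 0.22, 0.64 and 0.43 within the pairs. The mean difference was -0.43 (SE 0.14), with a limma adjusted p of 0.251 without the block and 0.0770 with it, so NFKBIA did not pass in either fit. Its 95% interval with the block ran from -0.72 to -0.14. The other NFKBIA probe set stood at 2.41, at background, on average and was not tested.

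In limma with the block, NFKBIA passed under 2 alternatives, with adjusted p of 0.0467 when the filter was a mean above 6 and 0.0360 with trended and robust variances. Both were chosen after the values were seen. Of all tested probe sets, 3318 of 17580 and 3357 of 22085 passed there, beside 2095 of 22085 in the first fit with the block. NFKBIA stayed negative in the 14 alternatives that gave it another value, with differences between -0.54 and -0.33. NFKBIE and NFKBIA thus read in opposite directions in each of the 3 pairs. That contrast was picked out after the values were seen and was not tested.

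NFKBIB encodes IkB beta, an inhibitor that is not a classical NF-kB target. The probe set used for it read 4.22, 5.11 and 5.76 in control and 4.60, 4.42 and 5.60 in siGNE cells. These levels are not far above the limit of 4, and the difference was -0.16 (SE 0.47, limma adjusted p 0.942). The range between the means of the pairs was 1.27, far above the difference. The other 2 NFKBIB probe sets, which are marked as prone to cross-hybridisation, had steadier levels near 7 and differed by 0.06 and -0.02, with 95% intervals in limma with the block from -0.18 to 0.30 and from -0.30 to 0.26.

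**Figure D3:**
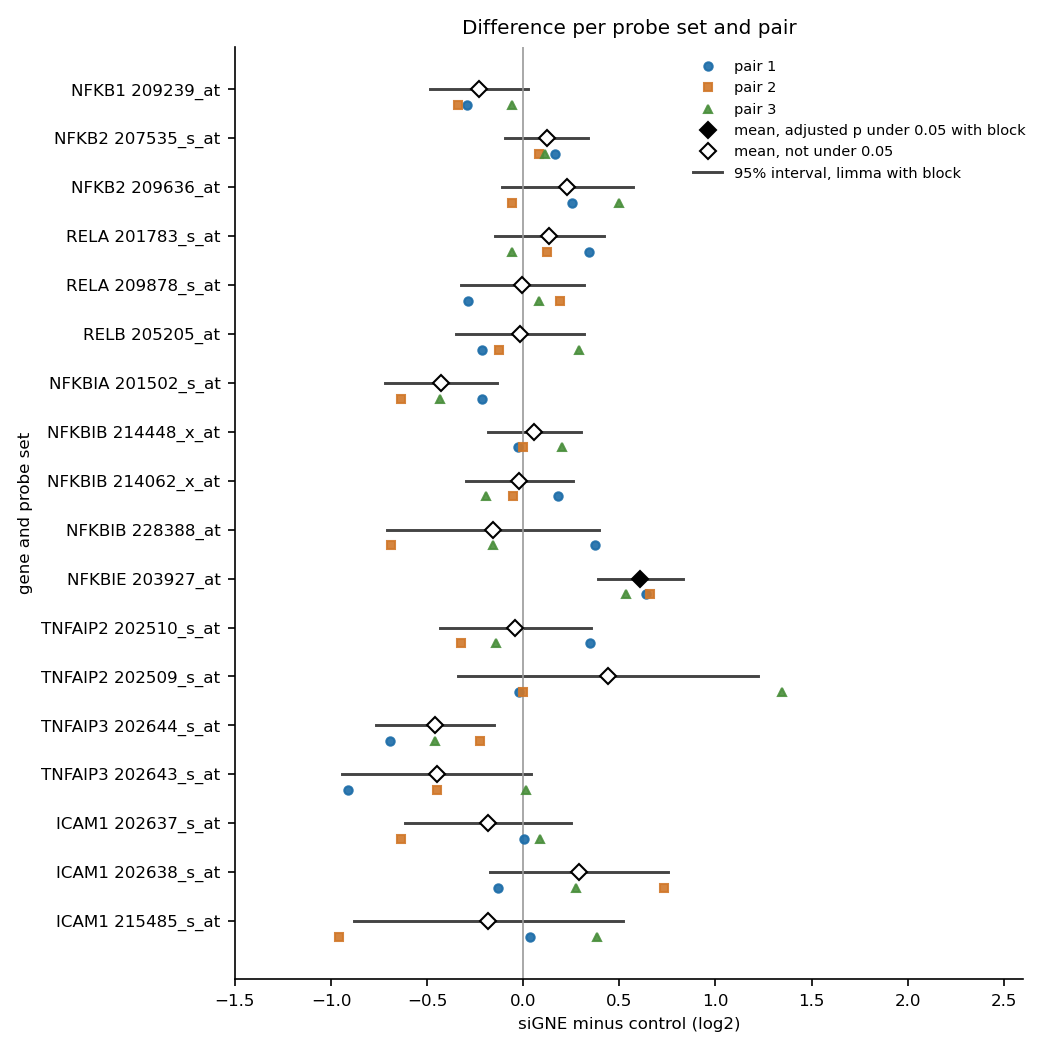
Difference between siGNE and control (log2) for the 18 tested member probe sets, with the 3 pairs as coloured points, the mean as a diamond and the 95% interval of the limma fit with the replicate block as a line. NFKBIE is the only filled diamond (adjusted p 0.0302), the 3 ICAM1 probe sets point in different directions, and the second TNFAIP2 probe set rests on pair 3.

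TNFAIP3 encodes A20, the ubiquitin-editing enzyme that shuts off signalling to IKK. Its stronger probe set read 7.97, 7.50 and 7.03 in control and 7.28, 7.28 and 6.57 in siGNE cells. Each siGNE array was below its own control, by 0.69, 0.22 and 0.46, while the groups overlapped. The difference was -0.46 (SE 0.30, limma adjusted p 0.574), and with the block the standard error was 0.12 and the adjusted p 0.0755, short of the threshold. It was -0.22 without control array 1 or without siGNE array 3, and -0.69 without control array 3. With the block and a mean above 6 as the filter, the limma adjusted p was 0.0449. That setting was chosen after the values were seen, and 3318 of all 17580 tested probe sets passed in it. The second TNFAIP3 probe set differed by -0.45, from -0.91 in pair 1 to 0.01 in pair 3 (limma adjusted p with the block 0.184).

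TNFAIP2 is a TNF-inducible gene whose product takes part in the formation of membrane nanotubes. The main TNFAIP2 probe set read 10.84, 11.38 and 11.65 in control and 11.18, 11.05 and 11.51 in siGNE cells, with differences of 0.35, -0.33 and -0.14 in the pairs and a mean of -0.04 (SE 0.24, limma adjusted p 0.972). The sign therefore depended on the pair. The second probe set read 4.97, 4.97 and 5.81 in control and 4.95, 4.97 and 7.16 in siGNE cells, so its difference of 0.44 came from pair 3 alone.

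ICAM1 encodes a cell surface adhesion molecule that leukocytes bind, and it is induced by NF-kB and by interferon gamma. Its strongest probe set read 8.06, 8.01 and 8.84 in control and 8.06, 7.37 and 8.92 in siGNE cells. Pairs 1 and 3 differed by 0.00 and 0.09 and pair 2 by -0.64, giving a mean of -0.18 (SE 0.43, limma adjusted p 0.918, and 0.503 with the block). The other 2 ICAM1 probe sets differed by 0.29 and -0.18, and in pair 2 they stood at 0.73 and -0.96. The 3 probe sets thus did not share a sign in that pair, and the data give no direction for ICAM1.

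Of the 6 members with more than 1 tested probe set, 4 (RELA, NFKBIB, TNFAIP2 and ICAM1) had probe sets of opposite sign, beside 35.3% of the 5258 genes with more than 1. For all 4, each of these differences was smaller than its standard error in limma without the block. The opposite signs therefore do not establish a disagreement between the probe sets. For 16 of the 18 tested probe sets, the range between the means of the 3 pairs was larger than the difference between siGNE and control, beside 74.6% of all tested probe sets. The exceptions were those of NFKB1 and NFKBIA, the genes whose groups did not overlap.

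The rest of the pathway was followed with lists of genes, each described by counts and medians. The lists were chosen with earlier results of these data known, so their counts are not a test against all genes. REL, the fifth NF-kB subunit, and NFKBIZ, an inducible nuclear IkB protein, were the 2 tested genes of a list of 4 other family members. REL read 9.03, 8.69 and 7.55 in control and 8.50, 8.46 and 7.00 in siGNE cells, a difference of -0.44 (SE 0.54), and NFKBIZ differed by -0.41 (SE 0.38). Both were lower in all 3 pairs, and neither passed in limma with the block (adjusted p 0.0666 and 0.0681). REL had 3 further probe sets, all lower in the mean, and 1 of them passed in limma with the block, where it fell by 0.50 (adjusted p 0.0439).

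Among 26 tested genes of 32 for the IKK complex, its adaptors and receptors, the median difference was 0.06, 0 passed in limma without the block (3 had an unadjusted p under 0.05), and 1 rose and 1 fell with it. Of all tested genes, 16.2% had an unadjusted p under 0.05 without the block, and 4.12% rose and 5.74% fell with it. RBCK1, also called HOIL-1, is a subunit of the ubiquitin ligase complex that builds linear chains on the way to IKK. It read 11.82, 11.82 and 11.52 in control and 12.76, 12.46 and 12.51 in siGNE cells, and it rose by 0.86 (SE with the block 0.11, limma adjusted p 0.0281). The other 2 RBCK1 probe sets differed by 0.51 and 0.16 and did not pass (limma adjusted p with the block 0.0576 and 0.287).

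BIRC2, also called cIAP1, is a ubiquitin ligase that promotes the canonical branch and restrains the non-canonical one. It read 11.30, 11.34 and 11.30 in control and 10.43, 10.84 and 10.61 in siGNE cells, and it fell by 0.69 in limma with the block (adjusted p 0.0348). TRAF3, a scaffold that works with BIRC2 in that restraint, differed by -0.49 (limma adjusted p with the block 0.0884), while a second TRAF3 probe set, prone to cross-hybridisation, differed by 0.26. TRAF5, another adaptor, differed by -0.35 from a level near the limit for testing (limma adjusted p with the block 0.128). The kinase subunits themselves did not pass in either limma fit. CHUK differed by -0.39, IKBKB by 0.03 and IKBKG by 0.27, and these were named outside the rule for listed genes.

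Of 9 tested negative regulators of 11, the median difference was 0.16, and 0 passed in limma without the block (1 had an unadjusted p under 0.05, beside 16.2% of all tested genes). With the block 1 rose and 0 fell, beside 4.12% and 5.74% of all tested genes. TAX1BP1, an adaptor that brings A20 to its substrates and is also an autophagy receptor, read 11.20, 11.19 and 11.00 in control and 11.76, 11.75 and 11.51 in siGNE cells. It rose by 0.54 (SE with the block 0.082, limma adjusted p 0.0342), and a second probe set rose by 0.55 (limma adjusted p with the block 0.0351), while another differed by 0.64 and did not pass. The A20 partners TNIP2 and TNIP1 differed by 0.36 and 0.16, and N4BP1 by 0.22, with limma adjusted p with the block of 0.0779, 0.249 and 0.161. Of 4 probe sets of N4BP1, 2 differed by negative values, -0.08 and -0.25.

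Several other inducible NF-kB targets fell with the block, among them the chemokines CXCL8 and CXCL1 and the cytokine IL6, while related genes did not pass. Of 26 tested genes of 38, 0 passed in limma without the block (6 had an unadjusted p under 0.05, beside 16.2% of all tested genes), and 0 rose and 5 fell with the block, beside the 4.12% and 5.74% given above. Because the list was chosen with earlier results of these data known, these counts describe it and do not test for enrichment. Their median difference was -0.26, and 12 were lower and 3 higher in all 3 pairs, beside 30.8% and 27.0% of all tested genes. For 6 of them, all siGNE values lay below all control values, and for 1 above, beside 13.8% and 9.38% of all tested genes. The median was -0.28, -0.11 and -0.20 in pairs 1, 2 and 3. Named outside the rule for listed genes, CXCL2, CXCL3, IL1A and IL1B differed by -0.13, -0.45, 0.03 and 0.11. Their limma adjusted p with the block was 0.419, 0.162, 0.947 and 0.430. LCN2 was the gene with all siGNE values above, and it differed by 0.32 (limma adjusted p with the block 0.157).

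The neutrophil chemokines CXCL8 and CXCL1 were among those that fell. CXCL8 read 6.88, 7.79 and 7.60 in control and 5.96, 6.09 and 6.46 in siGNE cells, and it fell by 1.26 (SE with the block 0.17, limma adjusted p 0.0294). A second CXCL8 probe set, marked as prone to cross-hybridisation, fell by 1.53 (limma adjusted p with the block 0.0286). CXCL1 read 8.15, 9.19 and 9.27 in control and 7.53, 7.67 and 7.27 in siGNE cells, and it fell by 1.37 (SE with the block 0.27, limma adjusted p 0.0473). The pairs gave -0.62, -1.51 and -1.99.

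The complement component C3 read 5.69, 5.97 and 6.10 in control and 4.48, 4.29 and 5.14 in siGNE cells and fell by 1.28 (limma adjusted p with the block 0.0281). The cytokine IL6 read 5.84, 5.72 and 4.82 in control and 4.79, 4.65 and 4.43 in siGNE cells and fell by 0.84 (limma adjusted p with the block 0.0466). Both lie close to the limit of 4, where a difference can be understated. CD83, a membrane protein of activated immune cells, read 8.48, 8.13 and 7.82 in control and 7.42, 7.60 and 7.09 in siGNE cells and fell by 0.77 (limma adjusted p with the block 0.0377). For CXCL8, CXCL1, C3, IL6 and CD83, all siGNE values lay below all control values. With the block and a mean above 6 as the filter, C3 and IL6 were no longer tested and 3 genes of the list passed in limma, and with the block and no filter 0 passed. With the filter at 6, 3318 of all 17580 tested probe sets passed.

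Interferon-induced genes were listed because interferon also acts on ICAM1. Of 9 tested genes of 11, the median difference was 0.18, and 0 passed in limma without the block (4 had an unadjusted p under 0.05, beside 16.2% of all tested genes). With the block 3 rose and 2 fell, beside 4.12% and 5.74% of all tested genes. The guanylate-binding protein genes GBP1 and GBP2 fell by 1.52 and 1.04 (limma adjusted p with the block 0.0256 and 0.0237). The transcription factor subunit IRF9, the antiviral enzyme OAS1 and the ubiquitin-like ISG15 rose by 0.71, 0.69 and 0.50 (limma adjusted p with the block 0.0496, 0.0431 and 0.0408). Further GBP1 probe sets fell by 1.54 and 2.04 (limma adjusted p with the block 0.0274 and 0.0281). A second GBP2 and a second OAS1 probe set differed by -0.47 and 0.47 and did not pass (limma adjusted p with the block 0.0591 and 0.0584). Named outside the rule for listed genes, IFIT1, TAP1, MX1 and PSMB9 differed by -0.82, 0.36, 0.18 and -0.18 and did not pass. Their limma adjusted p with the block was 0.0513, 0.0783, 0.289 and 0.310. For IFIT1, all siGNE values lay below all control values, beside 13.8% of all tested genes. The list thus held changes in both directions.

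**Figure D4:**
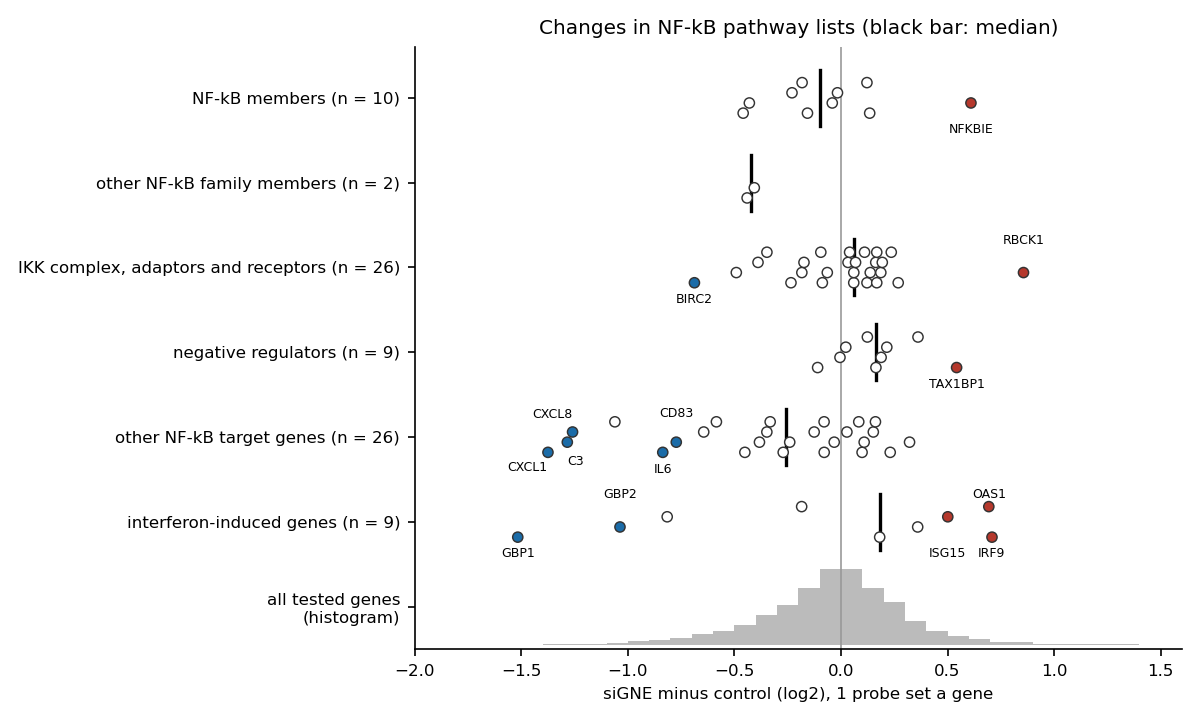
Difference between siGNE and control (log2) for the tested members and for each list, 1 point a gene, with red points for genes that rose and blue points for genes that fell in limma with the replicate block, white points for the others, black bars for medians and a histogram of all 10862 tested genes scaled to its own height. The members centre near the histogram's peak, and the 5 blue points of the target list are CXCL1, C3, CXCL8, IL6 and CD83.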

How the data were processed

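The deposited log2 values of 54675 probe sets on 6 arrays were made by the authors with GCRMA, which models background from probe sequence, per the submitters' processing notes. Neither its version nor the chip definition is given in the sources used here. Values ran from 0.612 to 16.3 and were used unchanged. That they are log2 follows from their range. Arrays have no read depth, and their number limits the precision. Gene names came from the platform's annotation (41097 probe sets with 1 gene symbol, 1801 with several, 11777 with none), with symbols updated by gene identifier for 41043. Probe sets with several symbols were left unnamed. Of the 62 control probe sets, none was tested.

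Differences were tested with limma 3.58.1 (R 4.3.3, lmFit and eBayes), with Benjamini-Hochberg adjustment over the 22085 probe sets with a mean above 4, and called at an adjusted p under 0.05. The main fit had no block (4 residual degrees of freedom), and the fit with the title number as a replicate block had 2. Deviations from the group means correlated at 0.58, 0.71 and 0.83 between arrays of the same number and at -0.64 to 0.17 otherwise, so the numbers were taken to pair the arrays. For each gene the probe set with the highest mean was used, without those marked _x_at where another existed.

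Members and lists were chosen with earlier results of these data known. From each list the genes passing with the block are named, up to 6, filled to 4 by the smallest unadjusted p in that fit. Some listed genes were not analysed here. Alternatives covered filters, a floor, normalization, variances, array weights, the block, omitted arrays and probe set choice.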

Additional observations from a re-analysis of the deposited data

How the results depend on the processing

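Without the replicate block, the alternatives listed at the outset left 0 member probe sets called, also at an adjusted p under 0.1. Few probe sets of any gene passed in most of these fits. Of all 22085 tested, 9 passed in the main fit, 8 with the floor, 20 with quantile normalization and 10 with median centring. With trended and robust variances 44 passed, and with any single array left out 0 did. There were 35 of 17580 with a mean above 6 and 3 of 54613 with no filter. The share of all probe sets under 0.1 is not given here. With array weights, 1 NF-kB target and 1 interferon-induced gene passed in limma, and under the other settings without the block 0 genes of any list did. Among all 22085 tested probe sets, 276 passed with array weights. With the replicate block 1 member probe set passed, as did 2, 1, 5 and 5 genes of the IKK, negative regulator, target and interferon lists and 0 of the other family members, and GNE (-1.88). Among all 22085 tested probe sets, 2095 passed with the block. The further combinations with the block were chosen after seeing the data. Quantile normalization, median centring and the floor at 4 each gave 1 member, 2 IKK genes, 1 negative regulator, 5 targets and 6, 6 and 5 interferon genes, with GNE at -1.86, -1.89 and -1.88. In these settings, in that order, 2646, 2239 and 2149 of all 22085 tested probe sets passed. A mean above 6 gave 3 members, 2 other family members, 2, 1, 3 and 6 genes, and trended and robust variances gave 2 members, 1 other family member, 2, 1, 6 and 6 genes. More of all probe sets passed there too, 3318 of 17580 with a mean above 6 and 3357 of 22085 with those variances. No filter with the block gave 0 members and 0 list genes, and 0 of all 54613 tested probe sets passed. GNE, at -1.88, did not pass there either (limma adjusted p 0.265). With the block and without pair 1, 2 or 3, GNE was at -1.45, -2.01 and -2.17 (limma adjusted p 0.0665, 0.127 and 0.144). RELB turned to 0.0183 with quantile normalization, with and without the block, and TNFAIP2 to 0.20 when its probe sets were averaged. Without a single array, RELB ranged from -0.16 to 0.22, NFKBIB from -0.56 to 0.21, TNFAIP2 from -0.27 to 0.14 and ICAM1 from -0.58 to 0.19. Without a pair, with the block, they ranged from -0.17 to 0.082 (0.0385 without pair 2), -0.42 to 0.11, -0.23 to 0.10 (0.0102 without pair 3) and -0.32 to 0.0439. The cause was not tested. Quantile normalization moved the median of all tested probe sets from -0.01 to 0.01. The median member difference ranged from -0.20 to 0.08 without a single array, TNFAIP3 from -0.69 to -0.22, NFKBIE from 0.30 to 0.92, NFKB1 from -0.31 to -0.19, NFKB2 from 0.05 to 0.19 and RELA from 0.04 to 0.29. Of the 24 alternatives, only 14 or 15 moved these genes' estimates, since filters, variances and a balanced block change the test and not the estimate. In those, NFKB1, NFKB2, RELA, NFKBIA, NFKBIE and TNFAIP3 kept their direction.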
